A study of Saccharomyces cerevisiae with 180 samples.

Results

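The genes examined were 44 nuclear yeast genes that encode subunits of the mitochondrial respiratory chain, the ATP synthase and the citric acid cycle. They were chosen by name and not by any measured value, but with earlier results of these data known. They were 4 genes of complex II, 9 of complex III, the 2 cytochrome c genes, 8 of complex IV, 11 of the ATP synthase and 10 of the citric acid cycle. All 44 were found among 5979 protein-coding genes. Their nucleosomes were those centred in the coding region or up to 300 bp upstream of the start codon, 268 of the 65032 with counts, of which 49 lay upstream. Each gene held 2 to 21 of them, with a median of 5. Of the 268, 4 also lay in the region of another gene, and 0 were shared within the set.

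The citric acid cycle oxidises acetyl-CoA in the mitochondrial matrix and passes electrons to the respiratory chain, whose gradient drives the ATP synthase. In budding yeast most of these proteins are encoded in the nucleus, and their genes are activated by the Hap2/3/4/5 complex and held down when glucose is plentiful. Trimethylation of H3 lysine 4 (K4me3), made by Set1, and acetylation of H3 lysine 18 (K18ac) are known for the start of transcribed genes. Trimethylation of lysine 36 (K36me3), made by Set2, follows elongating RNA polymerase II into the gene body, and Eaf3 is a reader of that mark in the Rpd3S deacetylase complex. Lysine 79 trimethylation (K79me3) is made by Dot1 over transcribed genes.

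Cells were grown in YPD, a rich medium with glucose, at 30 °C. One set of strains carried the lysine-to-arginine substitutions H3K4R, H3K18R or H3K36R, set against the strain WT H3. The other set held the strains labelled set2 and eaf3, set against the strain labelled bar1. All were harvested while growing, and how the alleles were made and the number of clones were not given in the sources used here. Formaldehyde-fixed chromatin was cut with micrococcal nuclease and taken through a first antibody and then a second antibody or Input. The second step makes it possible to ask which marks sit on the same nucleosomes.

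Each combination of strain, antibody and second step was 1 library, so no difference between strains has a replicate check and no test across libraries was possible. Intervals are 95% and cover counting error alone. Library totals ran from 150 to 2693698 reads, and 32 of 180 were under 10000. SET2 held 82 reads over all set2 libraries, 3.34% of its median in the other strains after scaling, and EAF3 held 106 reads in eaf3, 6.23%. BAR1 held 1157 reads in the strain labelled bar1, 90.4%, whereas NAM7 held 30, 1.04%. The strain labelled bar1 thus kept BAR1 and nearly lacked NAM7, and it is called by its label here. Its K79me3 Input library had 10044 reads and the K36me3 Input library of set2 24149, and comparisons that rest on these are not read. The K4me3 Input library of H3K4R held 3639 reads, 11 of them on the 44 genes, and is not read either.

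Most of these genes are short. Their median coding length was 571.5 bp, against 1206 bp over all genes, and 30 of the 44 were under 1000 bp. By length class, 20 were of up to 500 bp, 10 above that and up to 1000 bp, 9 between 1000 and 1500 bp and 5 of at least 1500 bp. The 5 long ones were ATP1 and ATP2, which encode the alpha and beta subunits of the catalytic F1 head, SDH1, the flavoprotein of succinate dehydrogenase, ACO1, aconitase, and KGD1, the E1 subunit of alpha-ketoglutarate dehydrogenase. Because the marks change with distance from the start, the median level of each mark is also given by length class, beside that of other genes. Upstream, the median gap to the next gene was 489 bp for the 44 genes and 447 bp over all genes. The upstream neighbour was divergent for 17 of 44 (38.6%), against 51.7% of all genes.

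In WT H3 cells the 44 genes took 0.640% of K4me3 reads, 0.490% of K18ac reads, 0.340% of K36me3 reads, 0.356% of K79me3 reads and 0.410% of H3 reads. They were thus rich in the marks of gene starts and poor in the marks of gene bodies, relative to H3. The median of H3 reads per nucleosome, over the library mean, was 0.954 for the 44 genes and 0.943 over all genes in WT H3. It was 0.853 and 0.954 in H3K4R, which has the deepest H3 library, 0.866 and 0.953 in H3K18R, and 0.872 and 0.948 in H3K36R. The genes were thus below all genes in H3 density in the substitution strains and not in WT H3, and a lower H3 raises every level taken over it.

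A level is the log2 of a gene's share of a mark's Input library over its share of the H3 Input library of WT H3, with 0.5 reads added. The H3 library had 187203 reads, and a gene needed 5 of them. COX7, with 0 H3 reads, and COX9, with 4, both encoding small subunits of cytochrome c oxidase, therefore have no such level, which left 42 genes. The median K4me3 level was 0.62 for these genes and 0.28 over all genes, and the median K18ac level was 0.32 and 0.15. The median K36me3 level was -0.77 and -0.19, and the median K79me3 level -0.47 and -0.07. Length moves with these differences. Among genes of up to 1000 bp alone, the median of the respiratory and citric acid cycle genes minus that of all such genes was -0.04 for K4me3, -0.16 for K18ac, -0.37 for K36me3 and -0.16 for K79me3, against 0.34, 0.17, -0.58 and -0.40 without that limit. Within the classes, from the shortest to the longest, the median K4me3 level was 0.51, 1.12, 0.67 and 0.00 in the respiratory and citric acid cycle genes and 0.09, 0.85, 0.59 and -0.23 in other genes. The K36me3 medians were -2.18, -0.66, -0.37 and 0.20, against -2.16, -0.79, -0.19 and 0.26 in other genes. For K18ac they were 0.34, 0.65, 0.15 and 0.46, against 0.40, 0.59, 0.35 and -0.22. For K79me3 they were -1.04, -0.13, -0.05 and -0.09, against -1.15, -0.36, -0.08 and 0.21. Against the H3 of 4 strains summed, the K4me3 medians were 1.03, 1.10, 0.58 and 0.32, against 0.39, 0.88, 0.58 and -0.21 in other genes. K4me3 was thus above other genes in each class on the H3 of WT H3, and in all but the class between 1000 and 1500 bp on the summed H3. Of the 28 genes of up to 1000 bp that have a level, 18 fell in the shortest class, where K4me3 is lower.

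**Figure D1:**
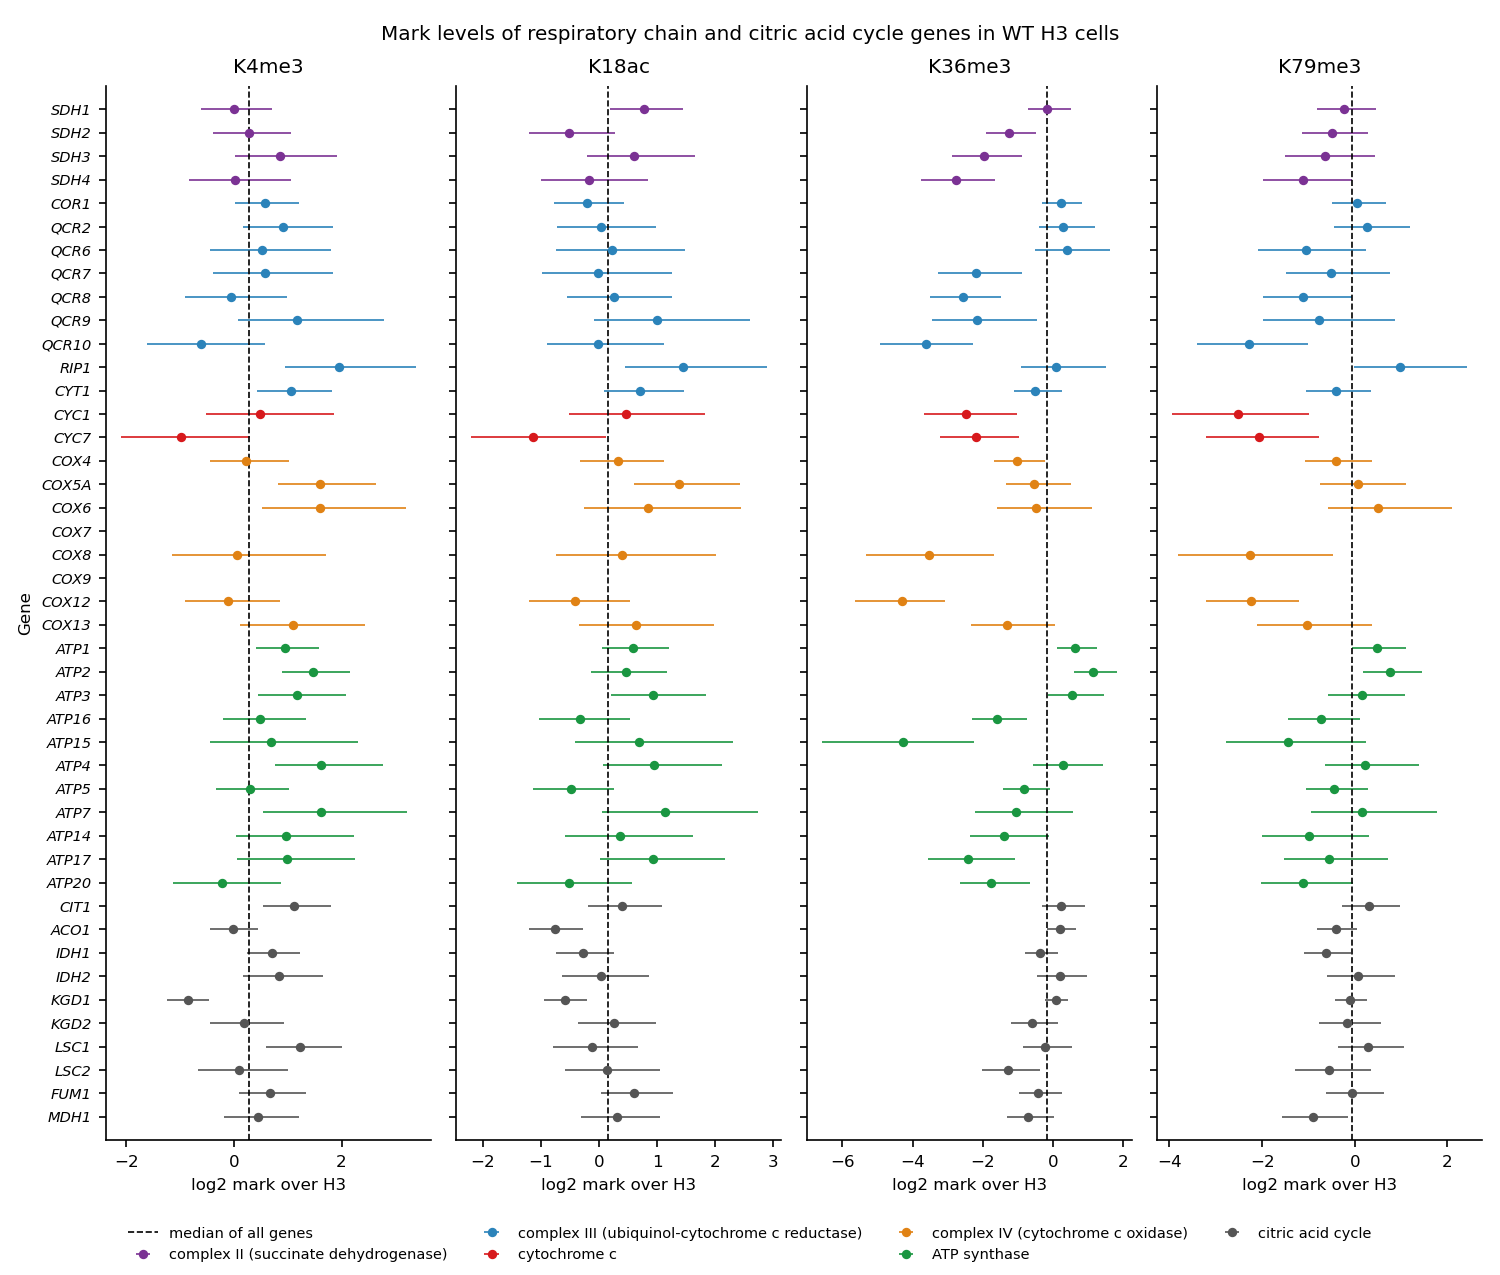
Level of 4 histone marks over H3 (log2, x axes differ between panels) for each of the 44 genes in WT H3 cells, coloured by complex, with 95% counting intervals; the dashed line is the median of all genes, and COX7 and COX9 have too few H3 reads. ATP synthase genes lie mostly to the right of the line for K4me3, and K36me3 ranges from -4.31 at COX12 to 1.13 at ATP2.

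The mark levels over H3 of single genes rest on few H3 reads, 0 to 81 per gene, so the H3 libraries of the 4 substitution-set strains were also summed. Against that summed H3 all 44 genes have a level. Their median was then 0.86 for K4me3, 0.54 for K18ac, -0.77 for K36me3 and -0.23 for K79me3, against 0.32, 0.21, -0.22 and -0.06 over all genes. The 44 genes took 0.372% of H3 reads in H3K4R, 0.384% in H3K18R and 0.388% in H3K36R, all below the 0.410% of WT H3.

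K4me3 was above that of other genes of like length in 9 or all 11 genes of the ATP synthase, depending on the H3 used. Against the summed H3, 11 of its 11 genes were above the median level of all genes of their own length class, by 0.06 to 1.44 on the log2 scale, and 9 of 11 were so against WT H3's own H3. Without any H3, by reads per nucleosome, 10 of 11 were above their class in WT H3, 9 in H3K18R, 11 in H3K36R, 8 in set2, 10 in eaf3 and 8 in bar1. These libraries are not independent cultures of one condition, and the genes are the same throughout. ATP4 and ATP7, subunits of the stator that holds the F1 head still, had K4me3 levels of 1.62 (0.76 to 2.78) and 1.61 (0.53 to 3.21). ATP2 had 274 K4me3 reads and a level of 1.47 (0.89 to 2.16), and ATP1 had 231 and 0.95 (0.41 to 1.59). ATP20, a subunit tied to dimers of the enzyme, was the lowest of the complex at -0.22 (-1.13 to 0.88).

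Cytochrome c oxidase genes were also mostly above their class. By the summed H3, 8 of 8 had K4me3 levels above their class median, by 0.38 to 1.15, and 4 of the 6 with enough H3 reads did so by WT H3's own H3. By reads per nucleosome the counts were 8 of 8 in WT H3, 6 in H3K18R, 7 in H3K36R, 7 in set2, 8 in eaf3 and 7 in bar1. COX5A, which encodes the aerobic form of subunit V, had a K4me3 level of 1.61 (0.82 to 2.65) and a K18ac level of 1.39 (0.60 to 2.42). Its hypoxic counterpart COX5B, which is outside the set, had a K4me3 level of 1.36 (0.78 to 1.98) and a K18ac level of 0.29 (-0.35 to 0.94) on the summed H3, where COX5A had 1.57 and 1.35. COX12, for subunit VIb, stood at -0.10 (-0.91 to 0.86) for K4me3 on its own H3 and 1.03 on the summed H3.

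In complex III, 6 of 9 genes were above their class for K4me3 on either H3. RIP1, the Rieske iron-sulfur protein, had the highest K4me3 level of the 42, 1.95 (0.96 to 3.39), and the highest K18ac level, 1.45 (0.45 to 2.89). It rested on 7 H3 reads, and on the summed H3 the K4me3 level of RIP1 was 1.09 (0.65 to 1.55) and its K18ac level 0.58 (0.14 to 1.04). For K18ac, COX5A and ATP7, at 1.14, came next, while on the summed H3 ATP15, 1.52, COX9, 1.505, and QCR8, 1.36, were the highest. QCR10, a small subunit, was low at -0.61 (-1.61 to 0.57) for K4me3. In complex II, 0 of the 4 genes were above their class for K4me3 on the summed H3 and 2 of 4 on WT H3's own H3. By K4me3 reads per nucleosome, 0 of 4 were above their class in WT H3 and in eaf3, 3 of 4 in H3K18R and in H3K36R, and 2 of 4 in set2 and in bar1, so no direction held across strains. For K36me3 the genes were lower more often. All 4 were below their class for K36me3 on either H3, by a median of 0.98 and 0.84 on the log2 scale, in SDH4 and SDH3 (membrane anchors), SDH2 (iron-sulfur subunit) and SDH1. On the summed H3, SDH2 lay close to its class median, with a difference of -0.03, while that of SDH4 was -1.59. By reads per nucleosome 3 of 4 were below their class for K36me3 in WT H3 and 4 of 4 in bar1.

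The citric acid cycle genes were closer to other genes of their length. For K4me3, 6 of 10 were above their class on either H3, and for K18ac 8 of 10 were below it on either H3. K18ac reads per nucleosome divided evenly, 5 above and 5 below, so that count depends on the H3 library. In the ATP synthase, K18ac reads per nucleosome were above the class in 7 of 11 genes in WT H3 and below it in 10 of 11 in bar1, so the reference strains differ there. The lowest K18ac levels were those of CYC7 at -1.14 (-2.19 to 0.12), ACO1 at -0.76 (-1.20 to -0.28) and KGD1 at -0.59 (-0.94 to -0.21). On the summed H3 they were those of CYC7, -0.68, QCR2, -0.45, a core subunit of complex III, and ACO1, -0.41. KGD1 was also low in K4me3, -0.86 (-1.24 to -0.45), while LSC1, a succinyl-CoA ligase subunit, was high at 1.23 (0.59 to 2.00) and CIT1, citrate synthase, at 1.11 (0.54 to 1.80).

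The 2 genes of cytochrome c, the mobile carrier between complexes III and IV, differed in K4me3 in WT H3, but not alike in other strains. CYC1 encodes the major form and lies on chromosome X (sacCer3, 526335 to 526664, plus strand). CYC7 encodes the minor form, known for a higher share under low oxygen, and lies on chromosome V (79636 to 79977, minus strand). CYC1 had K4me3 levels of 0.49 (-0.53 to 1.86), and CYC7 had -0.98 (-2.10 to 0.30), the lowest of the 42. On the summed H3 the levels were 0.80 (0.14 to 1.49) for CYC1 and -0.53 (-1.39 to 0.26) for CYC7. Nucleosome by nucleosome, from upstream into the gene, CYC1 had 2, 23 and 23 K4me3 reads and CYC7 had 5, 8 and 8. In H3K36R the K4me3 levels on its own H3 were -0.34 for CYC1 and -0.49 for CYC7. In bar1 the order was the opposite, with 10 K4me3 reads (17.1 CPM, reads scaled to the library total) on CYC1 and 34 (58.1 CPM) on CYC7. The K79me3 level was low in CYC1, -2.52 (-3.95 to -0.98), and in CYC7, -2.07 (-3.21 to -0.76).

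K36me3 and K79me3 were higher in longer genes. Across the 44 genes, coding length and the K36me3 level on the summed H3 had a Spearman correlation of 0.76 and a Pearson correlation of 0.75, against 0.63 and 0.59 over all genes. For K79me3 the correlations with length were 0.50 and 0.50, against 0.56 and 0.52 over all genes. These are descriptions across genes of the same libraries, which share one H3 denominator. The lowest K36me3 levels on WT H3's own H3 were those of COX12, -4.31 (-5.65 to -3.08) from 10 reads, ATP15, -4.27 (-6.60 to -2.25) from 4 reads, and QCR10, -3.62 (-4.93 to -2.30) from 12 reads. ATP15, of 189 bp, encodes the epsilon subunit of F1. The highest were those of ATP2, 1.13 (0.58 to 1.81), ATP1, 0.63 (0.12 to 1.25), and ATP3, the gamma subunit, 0.54 (-0.16 to 1.44). On the summed H3 the 3 lowest were again ATP15, COX12 and QCR10, from -3.45 to -3.07, and the highest were ATP2, 0.90, QCR6, 0.69, and ATP3, 0.61. For K79me3 the highest were RIP1, 0.99 (-0.01 to 2.43), ATP2, 0.76 (0.18 to 1.45), and COX6, 0.50 (-0.59 to 2.10), and the lowest after CYC1 were QCR10, -2.27 (-3.41 to -1.02), and COX8, -2.27 (-3.82 to -0.48). RIP1 and COX6 rest on 7 and 6 H3 reads, and on the summed H3 their K79me3 levels were 0.12 (-0.32 to 0.58) and 0.26 (-0.32 to 0.88). There the highest were ATP2, 0.52 (0.24 to 0.82), COX4, 0.45 (-0.01 to 0.94), and LSC1, 0.33 (-0.02 to 0.70).

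**Figure D2:**
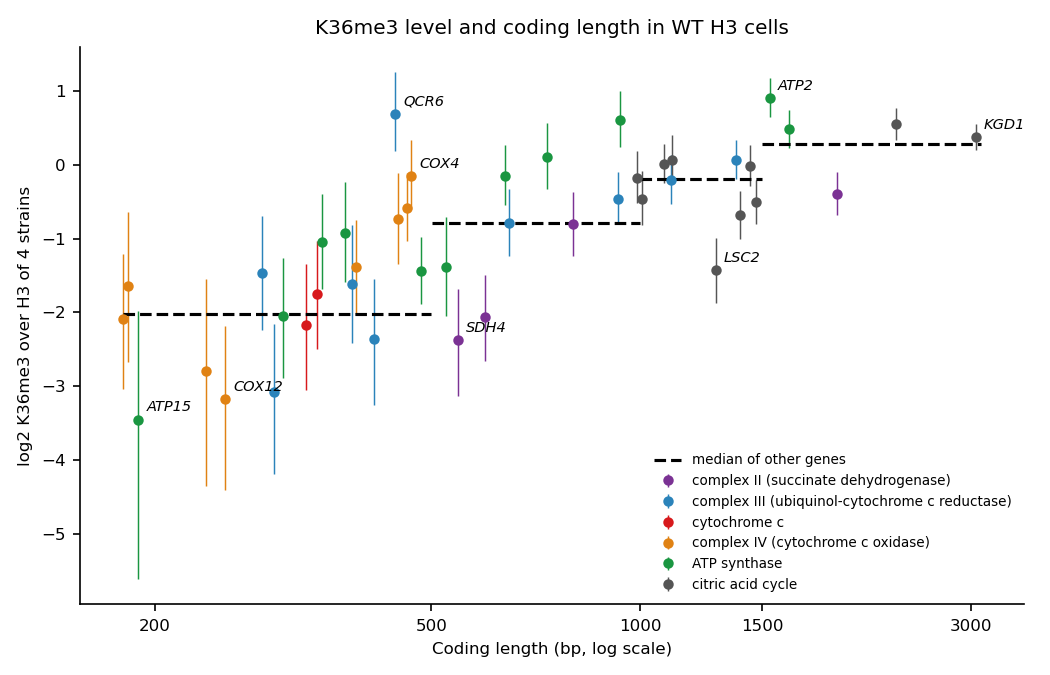
K36me3 level over the H3 of 4 strains (log2) against coding length (log scale) for the 44 genes in WT H3 cells, coloured by complex, with 95% counting intervals; dashed lines are the medians of other genes in each length class. Levels climb with length, and QCR6 and COX4 stand above the line of other genes of up to 500 bp.

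Some genes departed from their length. QCR6, a small subunit of complex III with 444 bp, had a K36me3 level of 0.69 (0.19 to 1.25) on the summed H3, which is 2.69 above its class median. Its 3 nucleosomes held 56, 58 and 51 K36me3 reads, so the upstream one, centred 27 bp before the start codon, was as rich as the others. The next gene upstream, PHO4, lies in tandem 251 bp away. COX4, subunit IV of cytochrome c oxidase, was 1.85 above its class for K36me3 and 1.45 above for K79me3. LSC2, the other succinyl-CoA ligase subunit, was 1.23 below its class for K36me3 at 1284 bp.

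Along the gene, K4me3 was densest in the first 600 bp and K36me3 beyond it, as in other genes. In genes between 1000 and 1500 bp, nucleosomes centred 150 to 300 bp past the start codon held 2.67 (2.33 to 3.05) times the library mean of K4me3 reads in the respiratory and citric acid cycle genes and 2.08 (2.06 to 2.11) in other genes. From 1000 bp on, the same genes had 0.38 (0.28 to 0.50), against 0.69 (0.68 to 0.70) in other genes. K4me3 was thus more concentrated at the start. K36me3 density from 1000 to 1500 bp was 1.28 (1.18 to 1.39) and 1.16 (1.15 to 1.17). In the 5 long genes the K36me3 density of that zone was 1.79 (1.68 to 1.91), against 1.56 (1.55 to 1.56) in other long genes. K18ac density between 150 and 300 bp was 1.56 (1.34 to 1.81) in the 9 genes between 1000 and 1500 bp and 1.52 (1.51 to 1.54) in other genes of that class.

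**Figure D3:**
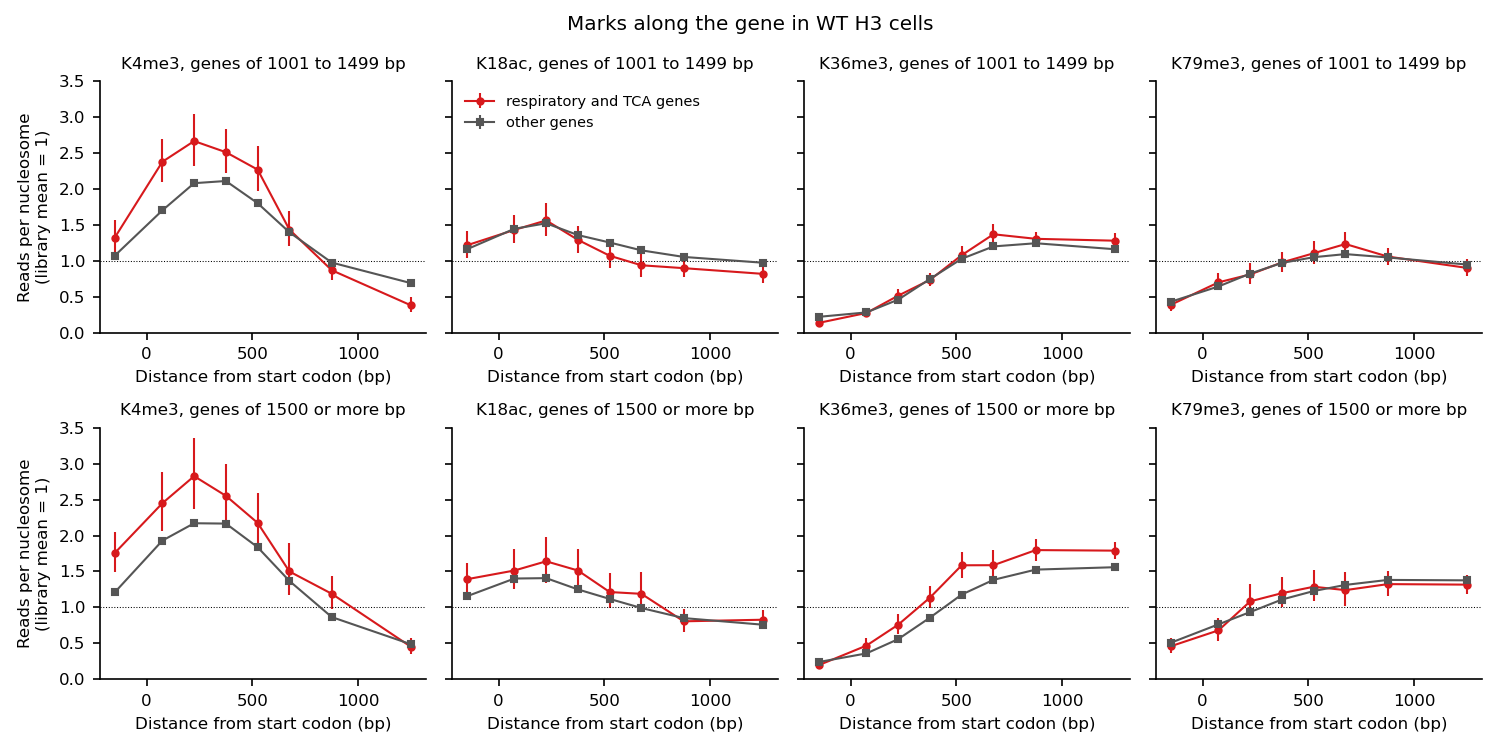
Reads per nucleosome, relative to the library mean, by distance from the start codon in WT H3 cells, for the respiratory and citric acid cycle (TCA) genes and other genes between 1000 and 1500 bp (upper row, 9 genes) and at least 1500 bp (lower row, 5 genes), with 95% Poisson intervals. K4me3 peaks near the start, higher in the respiratory and TCA genes, and K36me3 climbs with distance in each set.

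ATP2 shows the pattern at nucleosome resolution. Its K4me3 reads peaked at the fifth nucleosome, chromosome X 647984 to 648134 in the coding region, with 52 reads or 4.46 times the mean of all nucleosomes in that library, and the last 2 nucleosomes of the gene held 0 each. K36me3 reads on ATP2 were 9 on the first nucleosome, 183 bp upstream, and 76 on the fifth, and between 63 and 86 from there to the end. KGD1, the longest at 3045 bp, had its K4me3 peak at the fourth nucleosome, chromosome IX 122878 to 123028, with 30 reads or 2.57 times the mean. Its K36me3 reads reached 95 at chromosome IX 124753 to 124903, 2139 bp into the coding region, where it had 2 K4me3 reads.

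Pairs of marks were read from sequential pull-downs. The pair value is the log2 of a gene's share in the library of a first and a second antibody over its share of the first antibody's Input library, for genes with at least 30 reads over both. In WT H3, the median of K36me3 followed by K4me3 was 1.07 over 36 of the genes and 0.35 over all genes, and 30 of the 36 were above 0, against 62.2% of all genes. The library of that pair held 383876 reads in WT H3 and 390200 in H3K36R, which has no lysine 36 to carry the mark. How many of the WT H3 pair reads were recovered without K36me3 was not tested, so the value is not a measure of both marks on one nucleosome. K79me3 followed by K4me3 gave 0.72 over 37 genes and 0.29 over all genes, and K18ac followed by K4me3 0.43 over 43 genes and 0.10 over all genes. With K4me3 first there was no such excess. K4me3 followed by K79me3 gave -0.23 and -0.08, and K4me3 followed by K18ac -0.04 and 0.03. These values thus depended on the order and do not measure both marks on one nucleosome either. When K36me3 came second the medians were negative: K79me3 followed by K36me3 gave -0.47 and -0.27, and K4me3 followed by K36me3 gave -0.44 and -0.25. K36me3 followed by K18ac gave 0.46 and 0.15, but rested on 249 pair reads over the 44 genes.

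Length again moves with these values. Over genes of up to 1000 bp, K36me3 followed by K4me3 had a median of 1.37 in 22 of the genes and 1.09 in others, K79me3 followed by K4me3 0.95 and 0.83, and K18ac followed by K4me3 0.43 and 0.37. The other pairs did not all keep their direction there: K36me3 followed by K18ac gave 0.54 in these genes and 0.72 in others, K4me3 followed by K36me3 -0.67 in each, and K18ac followed by K36me3 -0.25 and -0.47. K79me3 followed by K36me3 gave -1.04 and -0.81. With K4me3 first, K4me3 followed by K18ac gave 0.00 and 0.26, and K4me3 followed by K79me3 -0.72 and -0.36. The strain labelled bar1 gave 0.64 over 16 genes and 0.20 over all genes for K36me3 followed by K4me3, and 0.38 over 44 genes and 0.14 over all genes for K18ac followed by K4me3. In bar1, 0 of the genes had enough reads for pairs that start from K79me3.

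Gene by gene, K36me3 followed by K4me3 was highest at ATP17, 2.77 (1.88 to 3.66), ATP7, 2.48 (1.79 to 3.17), and ATP14, 2.04 (1.32 to 2.72), subunits of the membrane part and stator. It was lowest at KGD1, -1.26 (-1.64 to -0.93), ATP20, -0.46 (-2.27 to 0.74), and COR1, a core subunit of complex III, -0.41 (-0.87 to -0.01). ATP2 had 223 pair reads and a value of 1.02 (0.79 to 1.24) in WT H3, and 71 pair reads and 1.28 (0.76 to 1.80) in bar1. For KGD1 the same pair gave -0.14 (-0.69 to 0.38) in bar1, where its interval spans 0. The other long genes had 0.47 (ATP1), 0.25 (ACO1) and -0.39 (SDH1) in WT H3.

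K79me3 followed by K4me3 was highest at COX13, 2.19 (1.15 to 3.11), a peripheral subunit of cytochrome c oxidase, ATP3, 1.97 (1.47 to 2.44), and QCR8, 1.97 (1.07 to 2.75). It was lowest at KGD1, -1.02 (-1.65 to -0.50), QCR7, -0.52 (-3.05 to 0.90), and FUM1, fumarase, -0.42 (-1.36 to 0.32). K18ac followed by K4me3 was highest at ATP20, 1.61 (0.85 to 2.32), QCR7, 1.38 (0.60 to 2.09), and QCR6, 1.27 (0.53 to 1.94). It was lowest at SDH1, -1.22 (-2.04 to -0.57), RIP1, -0.95 (-2.11 to -0.08), and QCR10, -0.60 (-2.06 to 0.44). SDH1 was low in bar1 too, -0.61 (-0.91 to -0.33), and ATP2 was positive in each strain, 0.83 (0.37 to 1.25) in WT H3 and 0.81 (0.55 to 1.08) in bar1.

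Substituted strains show whether the other marks differ where a modifiable lysine is replaced. A change is the log2 ratio of a gene's share of reads in the strain over its share in WT H3, for genes with at least 30 reads over both, and a gene is counted when it is past 2-fold. In H3K4R, 0 of 44 genes were past 2-fold for K18ac (0.388% of all genes in either direction), 0 of 39 for K36me3 (1.7%) and 0 of 42 for K79me3 (0.682%). Changes of these genes ran from -0.67 to 0.46 for K18ac, from -0.82 to 0.32 for K36me3 and from -0.67 to 0.86 for K79me3. For H3 itself 3 of 27 were, against 4.38% of all genes: SDH2 had 21 reads in H3K4R and 21 in WT H3 at different depths, a change of -1.17 (-2.11 to -0.22), COX4 20 and 20, -1.17 (-2.14 to -0.20), and ATP5, a stator subunit, 22 and 23, -1.23 (-2.14 to -0.32).

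In H3K18R, 0 of 17 genes were past 2-fold for H3 (6.56% of all genes) and 0 of 42 for K79me3 (0.617%), where changes ran from -0.76 to 0.99. For K36me3, ATP7 alone of 37 genes was, at -1.13 (-2.42 to -0.13) from 9 reads in H3K18R and 41 in WT H3, against 0.911% of all genes. For K4me3, 3 of 44 were, against 1.1% of all genes. QCR10 had 44 reads in H3K18R and 30 in WT H3, a change of 1.07 (0.38 to 1.80). CYC1 had 15 reads in H3K18R and 48 in WT H3, -1.12 (-2.09 to -0.29), and COX8, a small oxidase subunit, had 8 and 27, -1.16 (-2.57 to -0.05). All have at most 330 bp of coding length and 2 or 3 nucleosomes. A minimum of 100 reads in place of 30 leaves all 3 out. Of the genes that pass it, none was past 2-fold in any of the 3 substitution strains, for marks whose own residue was kept.

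In H3K36R, 0 of 18 genes were past 2-fold for H3 (6.05% of all genes) and 0 of 42 for K79me3 (1.31%), where changes ran from -0.73 to 0.62. For K4me3, 2 of 44 were, against 3.42% of all genes: COX7 had 23 reads in H3K36R and 37 in WT H3, -1.18 (-2.01 to -0.41), and CYC1 had 32 and 48, -1.09 (-1.79 to -0.42). For K18ac COX8 was the only one of 44, against 1.07% of all genes, with 19 reads in H3K36R and 47 in WT H3, -1.52 (-2.39 to -0.74). CYT1, cytochrome c1, at -0.77 and COX12 at -0.70 came next for K18ac, and the highest were ATP2, 0.44, QCR7, 0.33, and ATP4, 0.26. For K4me3 CYC7 was next lowest at -0.51. The largest positive K4me3 changes in H3K36R were those of ACO1, 0.55, SDH4, 0.50, and IDH2, 0.49, an isocitrate dehydrogenase subunit. The median change of the genes in H3K36R over WT H3 was 0.10 for K4me3 and -0.11 for K18ac, against -0.04 and -0.07 over all genes.

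The K36me3 antibody in H3K36R has no lysine 36 to bind, so its reads there are those recovered without the mark and are shares of 434317 reads. In that library 28 of 40 genes were past 2-fold higher than in WT H3, against 30.3% of all genes, and the median change was 1.54, against 0.45 over all genes. The count was 15 with a minimum of 100 reads and 15 with the K36me3 antibody in both steps. That minimum leaves out short genes such as COX12, QCR7 and QCR9. The share of all genes past 2-fold was not computed at either setting, so these counts do not measure a weaker change. The changes were larger in shorter genes. COX12 had 25 reads in H3K36R and 10 in WT H3, a change of 3.81 (2.74 to 5.07). QCR7 had 46 and 27, 3.29 (2.58 to 4.04), and QCR9 32 and 19, 3.27 (2.42 to 4.18), both small subunits of complex III. KGD1 was the lowest, 123 reads in H3K36R and a change of -0.69 (-0.98 to -0.43), followed by QCR6 at -0.29 (-1.01 to 0.32) and COR1 at 0.04 (-0.32 to 0.38). By length class the medians were 2.32, 1.75, 0.99 and 0.68 from the shortest to the longest class in the respiratory and citric acid cycle genes, and 1.86, 1.26, 0.61 and -0.33 over all genes.

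**Figure D4:**
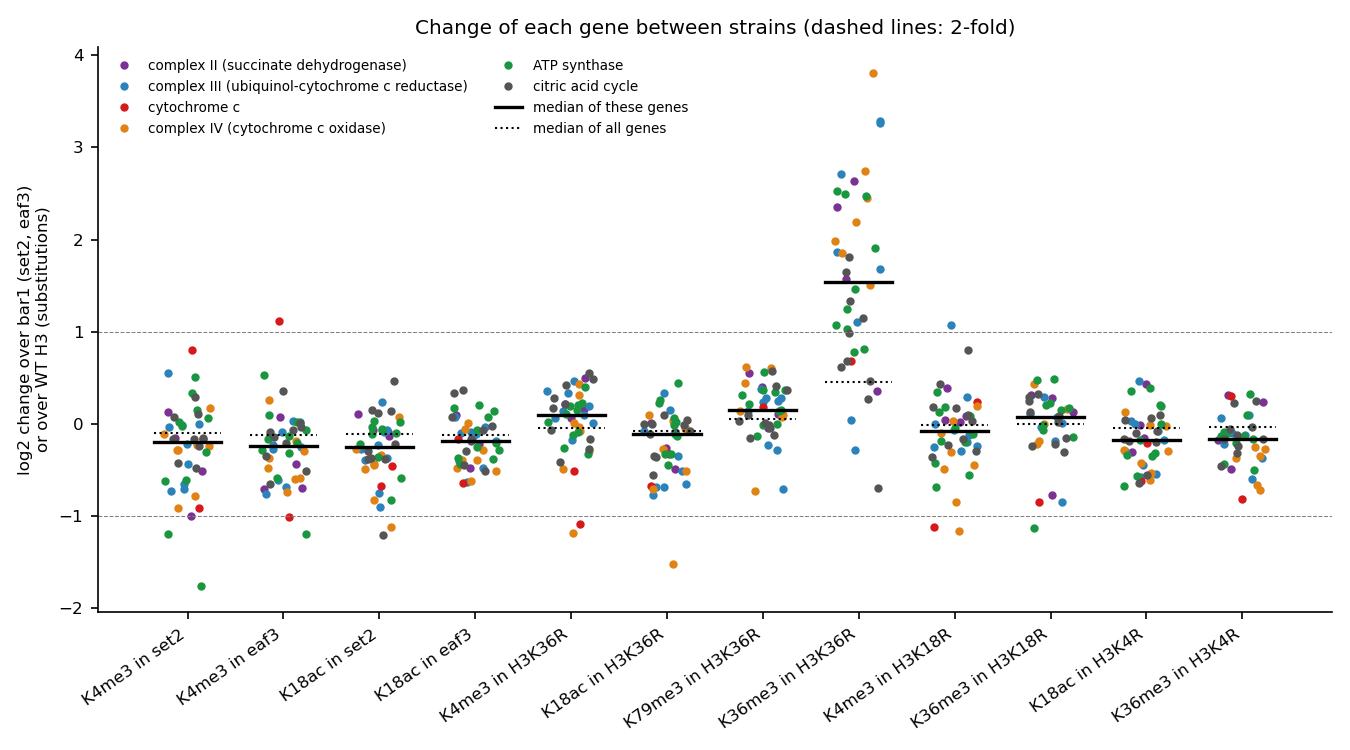
Change of each gene's share of Input reads (log2, y axis) between a strain and its reference (bar1 for set2 and eaf3, WT H3 for the substitutions) in 12 comparisons, each with 1 library a strain; points are genes coloured by complex and bars are medians. Most points lie within 2-fold, except K36me3 in H3K36R, where 28 of 40 lie above it (15 with a minimum of 100 reads, and 15 with the antibody in both steps). The share of all genes was not computed for the 2 counts of 15, and the higher minimum leaves fewer genes.

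Loss of Set2 or Eaf3 was set against bar1 for K4me3 and K18ac. For K4me3 in set2, 0 of 44 genes were past 2-fold higher (2.16% of all genes) and 2 lower (1.42%). ATP15 had 24 reads in set2 and 57 in bar1, a change of -1.76 (-2.53 to -1.07), and ATP14, a stator subunit, 32 and 51, -1.20 (-1.89 to -0.54). SDH4 was next at -0.999, and the highest were CYC1, 0.80 (-0.25 to 2.06), COR1, 0.56, and ATP17, 0.51. The median was -0.19, against -0.10 over all genes. For K18ac in set2, 0 of 44 were past 2-fold higher (0.0168%) and 2 lower (1.49%): LSC2 had 49 reads in set2 and 174 in bar1, -1.21 (-1.71 to -0.75), and COX8 21 and 71, -1.12 (-1.92 to -0.43). QCR7 followed at -0.91, and the highest were ACO1, 0.46, QCR8, 0.24, and KGD2, the E2 subunit of alpha-ketoglutarate dehydrogenase, 0.15. The median K18ac change was -0.25, against -0.11 over all genes.

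For K4me3 in eaf3, 1 of 44 genes was past 2-fold higher (2.41% of all genes) and 2 lower (0.816%). CYC1 had 65 reads in eaf3 and 10 in bar1, a change of 1.11 (0.20 to 2.30), while CYC7 had 49 and 34, -1.01 (-1.66 to -0.32), and ATP15 72 and 57, -1.19 (-1.71 to -0.66). QCR7 was next lowest at -0.76, and ATP17, 0.53, and KGD1, 0.36, followed CYC1. For K18ac in eaf3, 0 of 44 were past 2-fold higher (0.185%) and 0 lower (0.755%). The K18ac changes were highest at KGD1, 0.37, ACO1, 0.34, and ATP5, 0.21, and lowest at CYC1, -0.65, QCR10, -0.63, and COX12, -0.62. For K36me3 in eaf3, 0 of 28 were past 2-fold higher (2.98%) and 1 lower (1.3%), ATP20 at -1.15 (-1.997 to -0.28) from 29 reads in eaf3 and 22 in bar1. COX5A at -0.72 and CYC7 at -0.70 were next lowest for K36me3, and the highest were LSC1, 0.95, ATP4, 0.85, and COX4, 0.84. The median change in eaf3 was -0.24 for K4me3 and -0.18 for K18ac, against -0.12 for each over all genes.

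For CYC1 the strains set against differed from each other. Scaled to library totals, CYC1 had 30.7 K4me3 CPM in set2, 38.5 in eaf3 and 17.1 in bar1, and 28.5 in H3K18R, 29.6 in H3K36R and 63.3 in WT H3. Its lowest value was thus that of bar1 and its highest that of WT H3. Over all antibody combinations that hold K4me3, Input included, with at least 20 reads over both strains, CYC1 was above bar1 in 5 of 5 eaf3 libraries (0.00 to 1.64, the lowest just above 0) and in 2 of 3 set2 libraries (-0.61 to 1.33). CYC7 was below bar1 in 5 of 6 eaf3 libraries, and ATP15 in 3 of 4 set2 and 4 of 5 eaf3 libraries, where its changes ran from -1.76 to 0.06 and from -1.19 to 0.03. LSC2 was below bar1 for K18ac in 4 of 4 set2 libraries, by 0.10 to 1.21 on the log2 scale, and in 3 of 5 eaf3 libraries. CYC1 and CYC7 in eaf3, ATP15 in set2 and eaf3, and LSC2 in set2 were already past 2-fold in Input. The Input library in those counts is therefore not a separate check. These libraries come from different antibody combinations, which can take different nucleosomes. They are repeats neither of the culture nor of a single pull-down.

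Reads of K4me3 and K18ac lay further into the long genes in set2 and eaf3 than in bar1, and in H3K36R than in WT H3. K18ac reads did so in H3K4R as well. In the 5 long genes, the share of coding-region K4me3 reads centred past 1000 bp was 34.2% (30.9 to 37.7, Wilson intervals here) in set2 and 38.4% (36.1 to 40.8) in eaf3, against 23.6% (20.1 to 27.5) in bar1. For K18ac it was 53.6% (50.5 to 56.7) in set2 and 52.1% (49.3 to 54.9) in eaf3, against 41.7% (39.1 to 44.3) in bar1. In H3K36R it was 17.8% (16.1 to 19.8) for K4me3, against 12.8% (10.7 to 15.2) in WT H3, and 47.2% (44.5 to 50.0) for K18ac, against 35.8% (32.9 to 38.9) in WT H3. Other long genes showed the same direction: 51.3%, 52.3% and 35.6% for K4me3 in set2, eaf3 and bar1, and 32.0% in H3K36R against 23.6% in WT H3. H3K4R, in which lysine 36 was kept, had 45.2% (42.3 to 48.3) for K18ac, against 35.8% in WT H3, and H3K18R had 16.7% (14.0 to 19.8) for K4me3, against 12.8% in WT H3. The intervals of these strains overlap those of H3K36R. The late share of H3 reads in the 5 genes was 48.6% (41.5 to 55.8) in WT H3 and 52.0% (47.1 to 56.9) in H3K4R. It was 40.2% (32.2 to 48.7) in H3K18R and 52.4% (45.7 to 59.0) in H3K36R. The strains set2, eaf3 and bar1 had no H3 pull-down, so their late shares and changes cannot be set against H3.

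KGD1 and SDH1 had the widest K4me3 differences from bar1, and KGD1 the widest for K18ac, among the 5 genes. The late share of K4me3 reads on KGD1 was 51.3% (44.3 to 58.3) in set2 and 61.2% (56.6 to 65.5) in eaf3, against 37.1% (28.8 to 46.1) in bar1, and its late share of K18ac reads 75.3% (70.2 to 79.8) and 71.9% (67.5 to 76), against 53.3% (48.4 to 58.2). SDH1 had 40.5% (32.4 to 49.0) of K4me3 reads late in set2 and 44.1% (38.0 to 50.3) in eaf3, against 21.1% (13.4 to 31.5) in bar1. ATP1 had 20.5% (14.4 to 28.3) and 25.1% (20.0 to 31.0), against 11.1% (6.1 to 19.3). ATP2 and ACO1 differed little from bar1 for K4me3: 26.1% and 25.4% against 22.8% for ATP2, and 26.3% and 25.5% against 22.0% for ACO1, with overlapping counting intervals. Over all combinations with enough reads the late K4me3 share of the 5 genes exceeded bar1 by 7.5 to 14.4 percentage points in 4 set2 libraries and by 1.6 to 14.8 in 6 eaf3 libraries, Input included. For K18ac the difference ran from -0.3 to 11.9 points in 4 set2 libraries and from -6.8 to 10.4 in 5 eaf3 libraries, so its direction did not hold in every library.

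**Figure D5:**
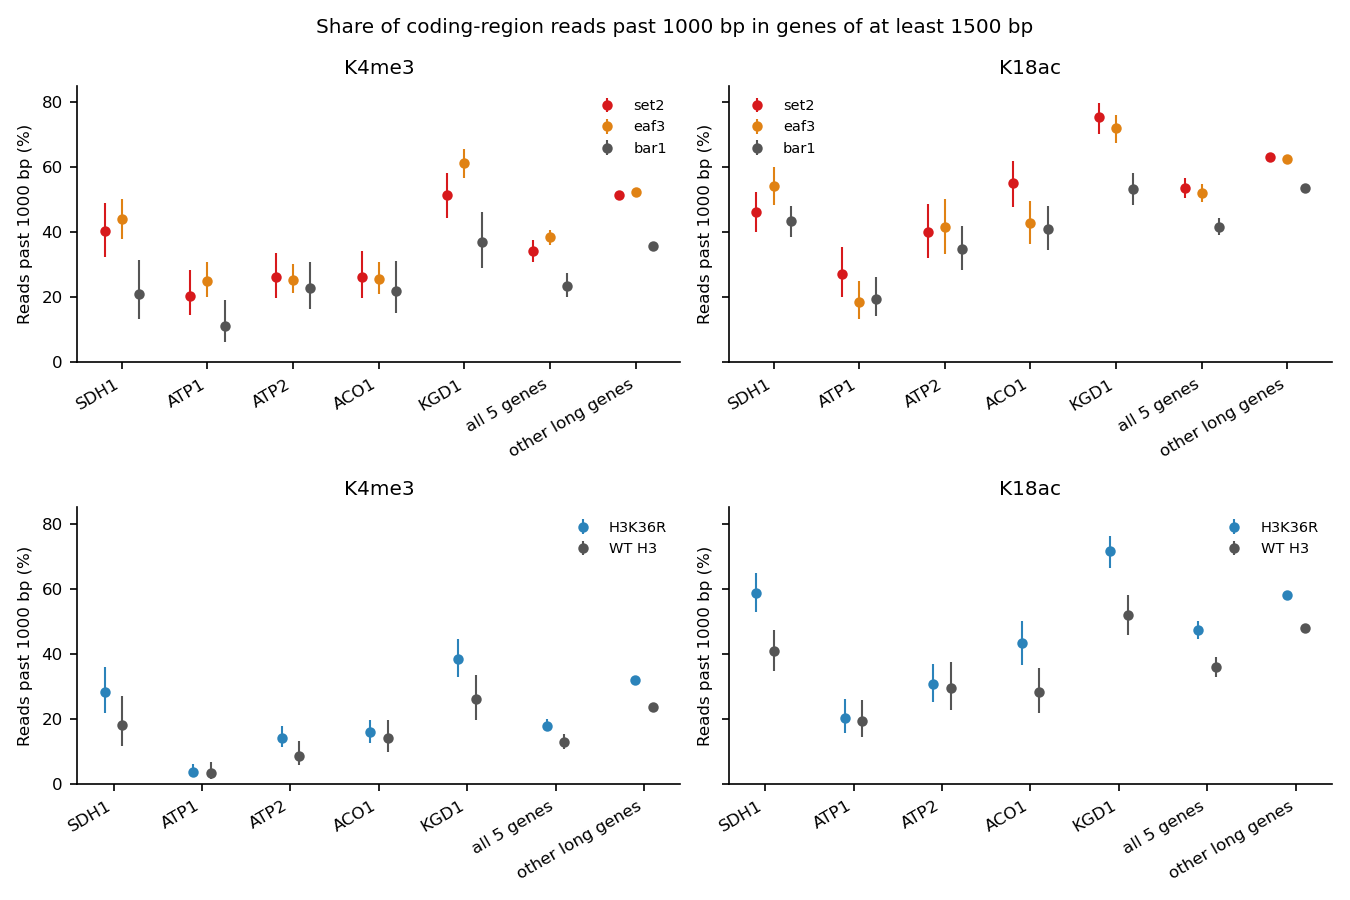
Percentage of coding-region reads centred past 1000 bp for each of the 5 genes of at least 1500 bp, their sum and all other long genes, for K4me3 (left) and K18ac (right), in set2, eaf3 and bar1 (upper row) and in H3K36R and WT H3 (lower row), with 95% Wilson intervals from 1 Input library each. KGD1 shows a wide gap for K18ac, 75.3% in set2 and 71.9% in eaf3 against 53.3% in bar1.

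Genes of the same pathway outside the set, 70 of the 71 listed, were regulators, assembly factors, enzymes of ubiquinone synthesis and alternative subunits. Their median level in WT H3 on its own H3 was 0.54 for K4me3, 0.48 for K18ac, -0.97 for K36me3 and -0.27 for K79me3, over 67 genes with enough H3 reads. For K36me3 in H3K36R, 30 of 64 were past 2-fold higher (30.3% of all genes) and 1 lower (9.70%). For K4me3, 2 of 69 were past 2-fold lower in set2 (1.42%) and 1 of 69 in eaf3 (0.816%). For K4me3, 0 were higher in set2 (2.16%) or eaf3 (2.41%), so these counts lie near the share of all genes. The 18 genes of glycolysis and fermentation had a median K4me3 level of 0.69 and K79me3 level of -1.63. The 20 listed glucose-repressed genes of carbon metabolism had medians of -1.23 for K4me3 and -0.24 for K18ac, below the 0.62 and 0.32 of the respiratory and citric acid cycle genes. These lists were not matched for coding length, with which both marks move. HAP4, the limiting activator subunit of this pathway, had a K4me3 level of 0.32 (-0.03 to 0.67) and a K36me3 level of 0.25 (-0.03 to 0.54) on the summed H3.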

How the data were processed

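The authors deposited read counts per nucleosome for 180 libraries, with an atlas of 66360 nucleosomes of 151 bp whose deposited score column is a constant and was not used. Reads were aligned with Bowtie2 to sacCer3, per the submitters' processing notes, and the version and filters were not given in the sources used here. Gene positions came from the RefSeq R64 table. Counts were summed per gene and scaled to library totals, with 0.5 reads added before log2. Levels needed 5 H3 reads, while pairs and strain changes needed 30 reads over both libraries.

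Library totals ran from 150 to 2693698 reads, with a median of 110476. Intervals on ratios are exact conditional binomial, on shares Wilson and on densities Poisson, all at 95% and for counting error only. With 1 library a combination no test across libraries was made, and calls past 2-fold were read against the share of all genes. The scripts were tested on simulated data. Python 3.11.15, numpy 2.4.6, pandas 2.3.3, scipy 1.17.1 and matplotlib 3.10.9 were used.

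The 44 genes and the lists were chosen with earlier results of these data known. Named singly are the 3 highest and 3 lowest genes of the main comparisons, the 5 genes of at least 1500 bp, CYC1 and CYC7, and outside the set HAP4 and COX5B. Other genes, such as QCR6, COX4, LSC1, LSC2 and CIT1, were named after their values were seen, and the remaining comparisons are given by counts and ranges.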

Additional observations from a re-analysis of the deposited data

How the results depend on the processing

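Of 171 alternative values for 26 results, 138 stayed within counting error, or within 1.5 times for counts, and 33 moved. A pseudocount of 2 reads moved none. Median-of-ratios scaling could not move the median changes, because it shifts all genes alike and cancels in the difference from all genes. It could move only the counts past 2-fold, where the 28 for K36me3 in H3K36R became 21, within the 1.5 times allowed. Values below are medians of the respiratory and citric acid cycle genes minus those of all genes (log2). For levels in WT H3, the H3 of 4 strains gave 0.53 for K4me3 (0.34 on its own H3), 0.33 for K18ac (0.17) and -0.17 for K79me3 (-0.40). Genes of up to 1000 bp gave -0.040, -0.16 and -0.16 for these marks, and -0.37 for K36me3 (-0.58), so the sign turned for K4me3 and K18ac. H3 first and the mark second gave 0.31 for K18ac and -0.22 for K79me3, and a minimum of 15 H3 reads gave -0.25 for K36me3 and -0.19 for K79me3. The genes past 2-fold for kept-residue marks in the substitution strains, 7 in all, became 0 with a minimum of 100 reads and 40 at 1.5-fold, and the 7 in set2 and eaf3 became 2 and 35. A minimum of 100 reads leaves fewer genes, and the share of all genes was not computed for the alternative counts. The 28 for K36me3 in H3K36R became 15 with that minimum and 15 with the mark taken in both steps. That route moved the median change to -0.36 for K18ac in set2 (-0.14), and in H3K36R to 0.00049 for K4me3 (0.14), -0.15 for K18ac (-0.04) and 0.92 for K36me3 (1.08). The last was 0.80 with a minimum of 100 reads, 0.98 in the coding region alone and 1.16 without shared nucleosomes, and K4me3 in set2 was -0.21 in the coding region alone (-0.09). For pairs, bar1 gave -0.36 for K4me3 then K36me3 (-0.20), 0.44 for K36me3 then K4me3 (0.72) and 0.13 for K36me3 then K79me3 (0.03). A minimum of 100 reads gave 0.042 for K4me3 then K79me3 (-0.15), 0.23 for K18ac then K4me3 (0.33), 0.59 for K36me3 then K4me3 and 0.56 for K79me3 then K4me3 (0.43), which was 0.55 with a minimum of 10. The cause of these moves was not tested. Pairs from K79me3 in bar1 gave no value. No paired analysis was possible because each strain and antibody combination was 1 library. Depth limits the short genes most, as 20 of the 44 have up to 500 bp and few nucleosomes.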
